A study of Homo sapiens with 6 samples.

Results

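The ATP-binding cassette (ABC) transporter genes of HCT116 cells were examined as a family. Members were the protein-coding genes of the deposited count table whose symbol is ABC followed by a subfamily letter from A to G and a digit, which gave 46 of 46427 genes. Subfamily A held 12 of them, B 9, C 11, D 4, E 1, F 4 and G 5. HCT116 is an established human colorectal cancer cell line. Total RNA of parental cells (*ZK3*-WT) was compared with that of cells edited by CRISPR/Cas9 in both alleles of *ZKSCAN3* (*ZK3*-KO), a zinc finger gene, with 3 replicates of each. The edited line was obtained by single-cell selection with puromycin, so the genotype and the properties of 1 selected clone cannot be told apart. The paper describes biological triplicates, and neither it nor the labels say how the replicate cultures were separated. The p-values therefore set the genotype difference against the spread of these 6 libraries within a genotype, and not against a spread between clones.

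ABC proteins bind and hydrolyse ATP through a conserved nucleotide-binding domain, and most use that energy to carry a substrate across a membrane. Subfamily A and most members of G move lipids and sterols, while the drug exporter *ABCG2* is also in G. Subfamilies B and C hold many of the exporters that remove drugs, bile constituents and conjugates, and D works at the peroxisome and lysosome. The proteins of E and F have no membrane domain and act on the ribosome. In the colon epithelium ABC exporters are known as part of the barrier against xenobiotics, and several are studied in resistance of colorectal tumours to chemotherapy.

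Library totals ranged from 60827060 to 69739215 reads. *ZKSCAN3* RNA itself was at 19.8 to 28.1 CPM (counts scaled to library size by TMM) in *ZK3*-WT and at 13.6 to 25.4 CPM in *ZK3*-KO libraries (edgeR, log2 fold change -0.16, FDR 0.797), so its RNA level does not check the labels. *ZK3*-KO replicate 3 stood apart, since its log2 CPM correlated with those of *ZK3*-KO replicates 1 and 2 at 0.973 and 0.961, while *ZK3*-WT replicates correlated with each other at 0.990 to 0.994. Results that rest on it are therefore given with and without it. Of the colon epithelial markers *EPCAM*, *KRT8*, *KRT18*, *KRT19* and *CDH1* were abundant, while *CDX1* was at 0 and *VIL1* and *LGALS4* stayed at or below 0.630 TPM (reads scaled by transcript length and then by library). Markers of fibroblasts, leukocytes and endothelium were below 1 TPM except *COL1A1*, at 11.9 to 29.1 TPM, and *CD68*, at 2.05 to 12.3 TPM.

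Of the 46 members, 30 were expressed at a mean of at least 1 TPM in a genotype, and 18 of these reached at least 10 TPM. TPM values are scaled by transcript length and serve here to compare levels between genes. *ABCE1*, which splits ribosomes after termination, had the highest level, with 88.4 ± 11.7 TPM in *ZK3*-WT and 109.9 ± 46.2 TPM in *ZK3*-KO cells (SD, n = 3 in each genotype, as in the means below). *ABCC2*, an apical exporter of conjugates such as bilirubin glucuronide, followed with 57.1 ± 17.7 TPM in *ZK3*-WT cells, and *ABCF1*, a factor in translation initiation, with 55.4 ± 5.42 TPM. *ABCC1*, at 48.9 ± 2.65 TPM, and *ABCF2*, at 45.3 ± 2.81 TPM, came next, and from *ABCC2* on the *ZK3*-WT libraries of each gene overlapped those of the next in this order. *ABCA2*, a lipid transporter of late endosomes and lysosomes, was the leading member of subfamily A with 42.6 ± 0.543 TPM. The well-studied drug exporters *ABCB1* (P-glycoprotein) and *ABCG2* (breast cancer resistance protein) were low in *ZK3*-WT cells, at 3.95 ± 0.195 and 1.45 ± 0.308 TPM, well below *ABCC1* and *ABCC2*.

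**Figure D1:**
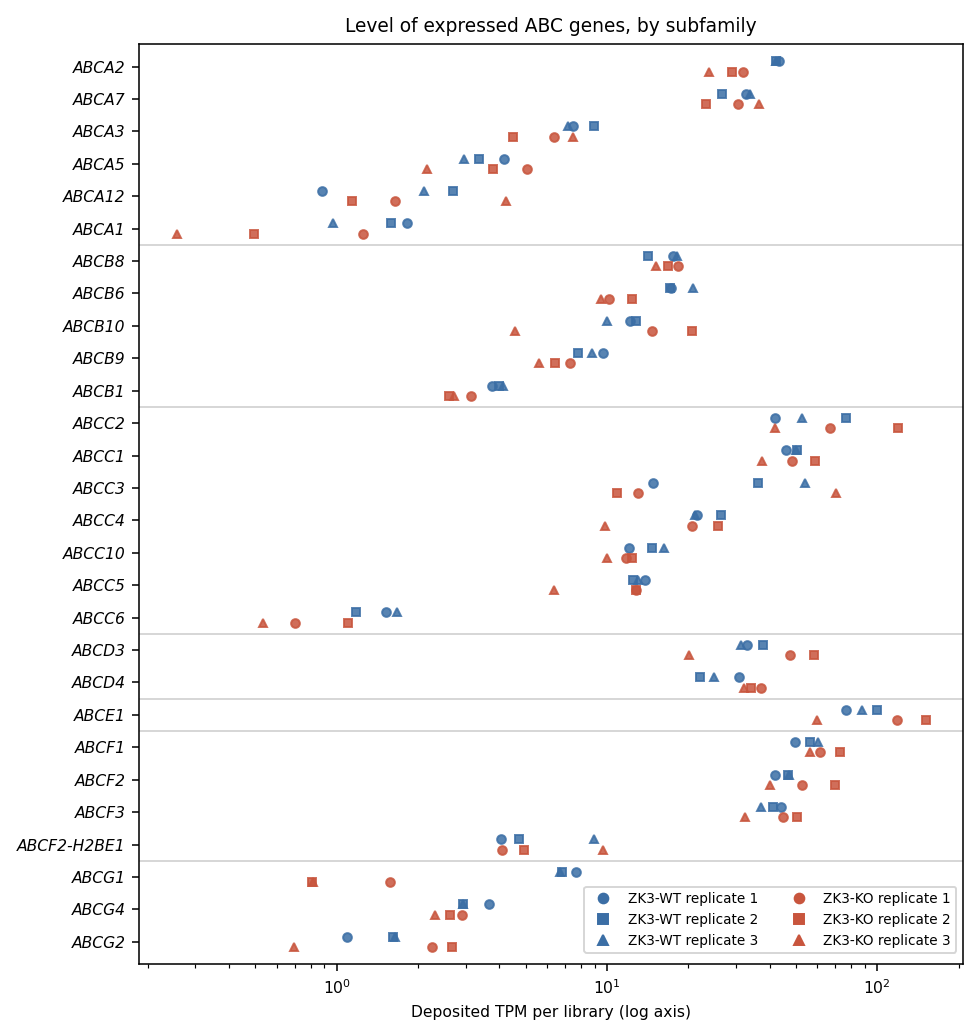
Deposited TPM (x axis, log scale) of 28 expressed ABC genes in each of the 6 libraries, grouped by subfamily and ordered by mean within it. Blue marks are *ZK3*-WT and red marks *ZK3*-KO libraries, and the shape gives the replicate. *ABCE1* has the highest means, and *ABCG1* is the gene whose genotypes lie farthest apart in ratio, at means of 7.07 and 1.07 TPM.

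Per subfamily, the summed level in the order *ZK3*-WT replicates 1 to 3 and then *ZK3*-KO replicates 1 to 3 was 90.8, 86.7, 90.3, 77.6, 62.9 and 75.5 TPM for A. It was 152, 218, 209, 174, 241 and 177 TPM for C, the subfamily with the most RNA, and 12.5, 11.4, 11.3, 6.75, 6.11 and 3.82 TPM for G. The sums of A and of G were lower in each *ZK3*-KO library than in each *ZK3*-WT library. Those of B, C, D, E and F overlapped between the genotypes. Mean sums in *ZK3*-WT and *ZK3*-KO cells were 89.3 and 72.0 TPM for A and 11.7 and 5.56 TPM for G. *ABCA2* alone went from 42.6 to 28.3 TPM and *ABCG1* from 7.07 to 1.07 TPM. Among the expressed members of A and G, *ABCA5*, *ABCA12* and *ABCG2* had higher means in *ZK3*-KO cells. TPM values lack TMM scaling, and on the log2(TPM + 1) scale the median log2 fold change of all genes was -0.082. Over all members the sum was 618 to 701 TPM in *ZK3*-WT libraries and 559 to 829 TPM in *ZK3*-KO libraries, with the lowest and the highest values both in the knockout.

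The other 16 members stayed under 1 TPM in both genotypes. *ABCB4* and *ABCB11*, which export phosphatidylcholine and bile salts from hepatocytes, *ABCC8* and *ABCC9*, the sulphonylurea receptors, *ABCG5* and *ABCG8*, the sterol dimer of enterocytes and hepatocytes, and *ABCA8*, *ABCA13*, *ABCB5*, *ABCC12* and *ABCD2* had at most 10 reads in any library and were too low to test. *ABCC9* and *ABCG5* had no read, where a count of 0 allows up to 3 reads, or 0.0428 to 0.0485 CPM, for counting error only. The other 5, *ABCA4*, *ABCA6*, *ABCA9*, *ABCA10* and *ABCC11*, had enough reads for the test.

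Several members lie next to a relative. On chromosome 17 (GRCh37, as are the other positions) *ABCA8*, *ABCA9*, *ABCA6*, *ABCA10* and *ABCA5* lie in a row on the minus strand from chr17:66863430 to chr17:67323385. Of this row *ABCA5*, a lysosomal lipid transporter, was at 3.50 ± 0.615 TPM in *ZK3*-WT cells, and *ABCA10*, the next highest, at 0.250 ± 0.100 TPM. *ABCB1* (chr7:87132333-87342639) was expressed and its neighbour *ABCB4* (chr7:87031012-87109751) was not tested for lack of reads. *ABCC11* (chr16:48199684-48281479) and *ABCC12* (chr16:48114793-48189929) are neighbours that were both under 1 TPM. *ABCC1* (chr16:16042995-16237114) was at 48.9 TPM and *ABCC6* (chr16:16243422-16317379), which lies beside it on the opposite strand, at 1.46 ± 0.251 TPM in *ZK3*-WT cells. *ABCG5* and *ABCG8* are transcribed away from each other from RefSeq start sites with 131 bases between them, and both were too low to test.

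To show what lies in front of the abundant ribosomal members and of the sterol exporter *ABCA1*, the bases upstream of their RefSeq start sites are given 5′ to 3′ on the gene's strand. They come from the RefSeq promoter table (GRCh38.p14), which had an entry for 36 of the 46 members. *ABCA4*, *ABCA8*, *ABCB4*, *ABCB5*, *ABCC1*, *ABCC3*, *ABCC8* and *ABCG1* were among those with none. Each matched GRCh37 exactly once, at chr4:146019213-146019439 (plus strand) for *ABCE1*, chr6:30538969-30539169 (plus) for *ABCF1*, chr7:150924292-150924541 (minus) for *ABCF2*, chr3:183903737-183903882 (plus) for *ABCF3* and chr9:107690437-107690686 (minus) for *ABCA1*. Bases inside the annotated GRCh37 gene were left out. Capitals mark matches, on either strand, to the GC box (GGGCGG), the ETS motif (CCGGAAG), the CCAAT box (CCAAT), the TATA box (TATAAA), the E-box (CACGTG), the cAMP response element (TGACGTCA) and the DR4 pattern. DR4 was searched as 2 direct repeats of NGGTNA with 4 bases between them, an arrangement that liver X receptors are known to bind. None of the matches shown overlapped another.
ABCE1: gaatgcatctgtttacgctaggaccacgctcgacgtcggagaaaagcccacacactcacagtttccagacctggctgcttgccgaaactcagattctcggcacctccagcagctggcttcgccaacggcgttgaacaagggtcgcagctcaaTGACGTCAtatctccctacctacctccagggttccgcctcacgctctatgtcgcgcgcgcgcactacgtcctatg
ABCF1: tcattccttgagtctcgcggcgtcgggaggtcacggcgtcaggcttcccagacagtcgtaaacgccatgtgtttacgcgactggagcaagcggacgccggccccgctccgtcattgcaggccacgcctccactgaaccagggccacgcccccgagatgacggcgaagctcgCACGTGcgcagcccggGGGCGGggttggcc
ABCF2: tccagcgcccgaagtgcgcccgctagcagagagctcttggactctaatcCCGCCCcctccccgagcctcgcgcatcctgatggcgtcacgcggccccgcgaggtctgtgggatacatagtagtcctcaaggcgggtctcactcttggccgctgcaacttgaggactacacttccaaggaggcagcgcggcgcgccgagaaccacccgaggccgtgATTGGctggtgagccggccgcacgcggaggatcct
ABCF3: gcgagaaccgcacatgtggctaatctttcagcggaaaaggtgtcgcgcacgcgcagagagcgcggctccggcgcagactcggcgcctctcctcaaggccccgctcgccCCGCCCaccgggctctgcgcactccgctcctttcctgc
ABCA1: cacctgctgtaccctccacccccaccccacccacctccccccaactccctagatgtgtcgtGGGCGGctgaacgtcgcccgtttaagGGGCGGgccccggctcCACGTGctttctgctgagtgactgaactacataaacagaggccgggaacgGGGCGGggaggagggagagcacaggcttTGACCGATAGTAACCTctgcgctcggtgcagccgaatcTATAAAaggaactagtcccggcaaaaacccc
*ABCE1* held TGACGTCA, which 1.37% of 35116 promoters hold in the same window, and no GC box. *ABCF1*, *ABCF2* and *ABCF3* each held 1 GC box, a motif present in 35.2%, 42.6% and 25.1% of promoters over windows of their lengths (201, 250 and 146 bases). *ABCF1* also held an E-box (4.55% of promoters) and *ABCF2* a CCAAT box on the strand opposite the gene (32.0%). *ABCA1* held 3 GC boxes, a TATAAA (10.7%), an E-box (6.35%) and the DR4 pattern, which 0.530% of promoters hold within 250 bases upstream. Over the full 250 bases upstream of the 36 members with an entry, *ABCA1* was the 1 with a DR4 match and *ABCE1* the 1 with TGACGTCA. In these windows 19 members (52.8%) held a GC box, beside 42.6% of all promoters. These letters describe the windows and do not show that a factor binds there. The entry of *ABCF2* is also that of the readthrough gene *ABCF2-H2BE1*, so its GC box is counted for both members.

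The comparison of *ZK3*-KO with *ZK3*-WT cells asks how the RNA of each member stands after loss of ZKSCAN3. Of the 35 members with enough reads, 1 passed the threshold of an adjusted p (FDR) of 0.05, and it was lower in *ZK3*-KO cells. That was *ABCG1*. Among all 18366 genes tested 1.23% were called lower and 0.817% higher, so 1 call among 35 members is near the background. With all libraries no member was called higher by edgeR or DESeq2, and 1 higher member, *ABCD4*, had an unadjusted p under 0.05. In all 6 members had an unadjusted p under 0.05, among them *ABCA2*, *ABCB6*, *ABCC6*, *ABCD4* and *ABCG1*, against 18.4% of all genes. The libraries of the 2 genotypes did not overlap for 3 members that were higher in *ZK3*-KO cells (*ABCD4*, *ABCF1* and *ABCF2*) and for 7 that were lower (*ABCA2*, *ABCB1*, *ABCB6*, *ABCB9*, *ABCC6* and *ABCG1* among them), where 12.7% and 13.8% of all genes were separated in those directions.

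The median log2 fold change of the 35 members was 0.14, with 22 above 0 and 13 below, beside 0.018 for all genes, and the sign turned to -0.017 on the log2(TPM + 1) scale. Their median size of change, 0.33 on the log2 scale, was close to the 0.30 of all genes. Among the 22 above 0 were all 5 tested members under 1 TPM (*ABCA4*, *ABCA6*, *ABCA9*, *ABCA10* and *ABCC11*). Without *ZK3*-KO replicate 3, 3 members were called higher (*ABCB10*, *ABCD3* and *ABCE1*) and 5 lower (*ABCA2*, *ABCB6*, *ABCC3* and *ABCG1* among them). In that fit 7.41% of all genes were called higher and 7.73% lower. In bulk RNA a change in the level per cell and a change in the make-up of the culture cannot be told apart.

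**Figure D2:**
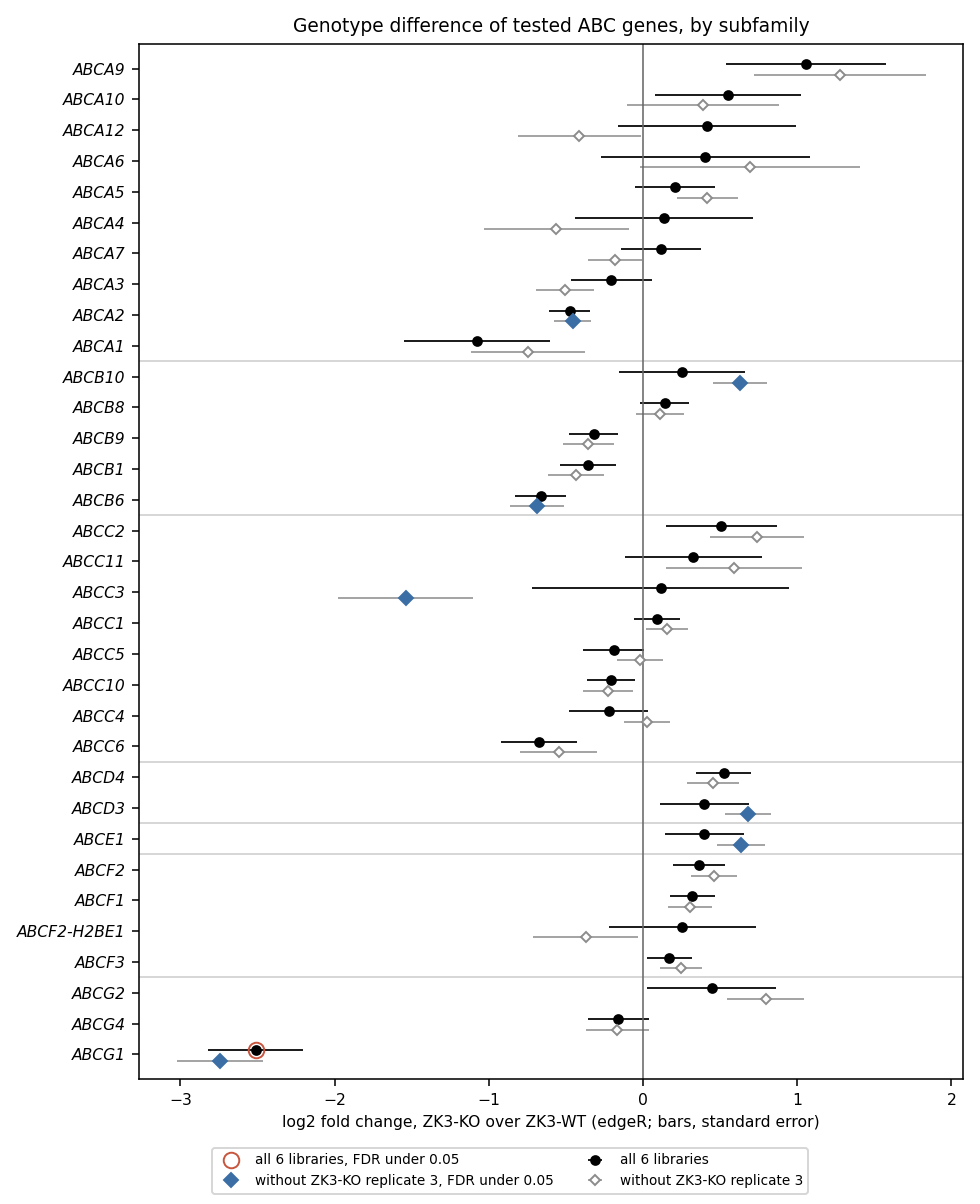
Log2 fold change of *ZK3*-KO over *ZK3*-WT (x axis; bars, standard error) of 33 tested ABC genes by subfamily, with all 6 libraries (black) and without *ZK3*-KO replicate 3 (grey). The red ring marks the gene past an FDR of 0.05 with all libraries, *ABCG1* at -2.51, and the 7 blue diamonds mark those past it without that library. *ABCC3* moves most between the fits, from 0.11 to -1.54.

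Values of single libraries are given below as TMM-normalized CPM in the order of replicates 1, 2 and 3. *ABCG1* encodes a transporter that hands cholesterol to high-density lipoprotein, and it is a well-known target of liver X receptors. In *ZK3*-WT cells it was at 18.7, 16.8 and 16.7 CPM (1175, 1176 and 1165 reads). In *ZK3*-KO cells it was at 3.40, 1.77 and 3.96 CPM (219, 123 and 245 reads). The groups were far apart, and the *ZK3*-KO libraries, replicate 3 included, were all below the lowest *ZK3*-WT library. The fitted level was 5.71-fold lower in *ZK3*-KO cells (log2 fold change -2.51, SE 0.31, FDR 0.0112, edgeR). It ranked 155 from the lowest of the 18366 log2 fold changes. Without *ZK3*-KO replicate 3 it was -2.74 (FDR 0.000960). The call held in 7 of 11 alternative fits and was lost when *ZK3*-WT replicate 1, 2 or 3 or *ZK3*-KO replicate 1 was left out, with FDR values of 0.0650, 0.0762, 0.0609 and 0.0679. The log2 fold change in those 4 fits was -2.46 to -2.59, and 49 to 74 genes were called in all.

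**Figure D3:**
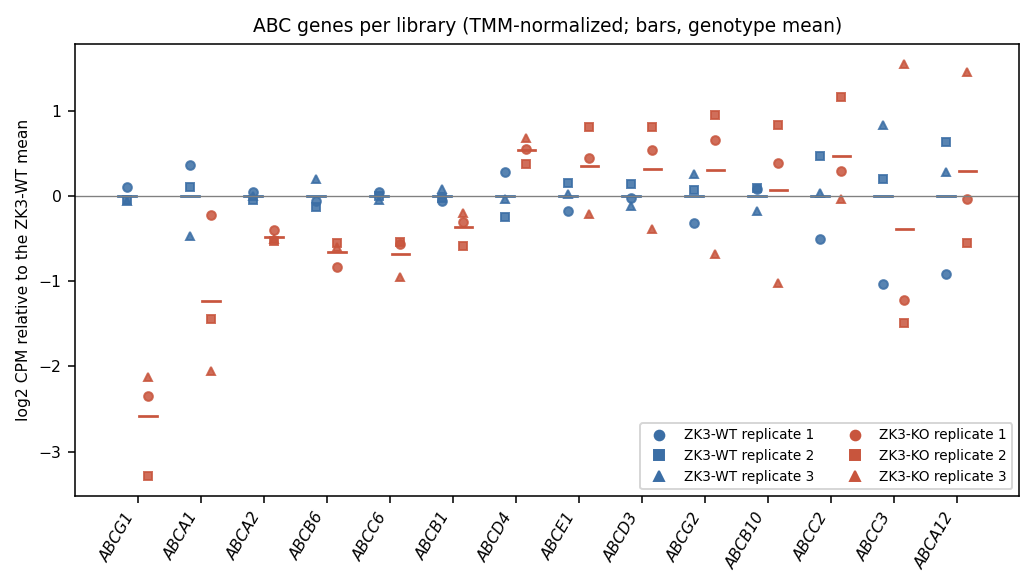
Log2 CPM of 14 ABC genes relative to the *ZK3*-WT mean (y axis) in each library, with blue for *ZK3*-WT, red for *ZK3*-KO, marker shape for the replicate and a short line for the mean of a genotype. *ABCG1* in *ZK3*-KO libraries lies between -2.13 and -3.28. For *ABCE1*, *ABCD3*, *ABCG2*, *ABCB10* and, narrowly, *ABCC2* the triangle of *ZK3*-KO replicate 3 lies below 0 and the other 2 above. For *ABCC3* and *ABCA12* that triangle lies above 0 and the other 2 below.

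*ABCG1* is on chromosome 21 (chr21:43619799-43717354, plus strand). The 140 other tested genes there centred on a log2 fold change of -0.39 (median), and 1 of them, *MX1*, was lower than *ABCG1*. Of 14 tested genes within 1 Mb, 11 were below 0 and 3 above, with a median of -0.35, and *MX1* at -3.58 (FDR 0.00977) was the 1 past the threshold. *ABCD4*, a lysosomal transporter for cobalamin, is on chromosome 14 (chr14:74751972-74769758, minus strand). Its level was 42.3, 29.3 and 34.1 CPM in *ZK3*-WT cells, compared with 51.0, 45.1 and 55.7 CPM in *ZK3*-KO cells. The *ZK3*-KO libraries were all higher, without overlap, but the difference did not pass (log2 fold change 0.52, SE 0.18, FDR 0.191, edgeR). The 503 other tested genes of chromosome 14 had a median of 0.51, with 258 below and 245 above *ABCD4*, so *ABCD4* stood in the middle of its chromosome. Of 30 tested genes within 1 Mb of *ABCD4*, 28 were above 0 and 2 below, and 3 passed the threshold. Their median of 0.65 was above the value of *ABCD4*. The part of the chromosome-wide shifts in either gene's values was not tested.

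**Figure D4:**
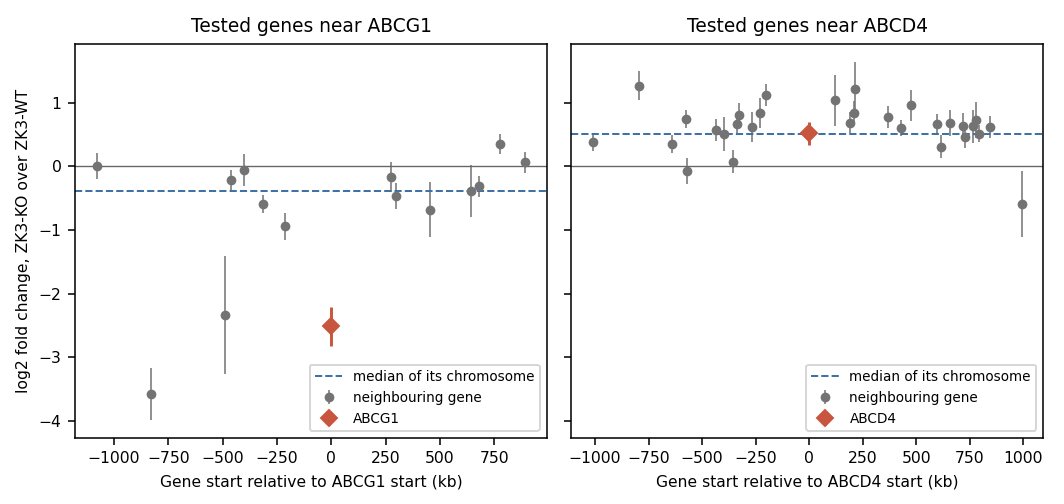
Log2 fold change (y axis; bars, standard error) of tested genes within 1 Mb of *ABCG1* on chromosome 21 (left, 14 genes) and of *ABCD4* on chromosome 14 (right, 30 genes), by the distance between gene starts in kb (x axis). The dashed line is the median of the chromosome's other genes, -0.39 and 0.51. *ABCG1* lies far below the line and *ABCD4* on it.

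The partner of *ABCG1* in sterol efflux, *ABCA1*, loads cholesterol and phospholipid onto apolipoprotein A-I. It was at 9.21, 7.70 and 5.13 CPM in *ZK3*-WT cells, compared with 6.12, 2.62 and 1.72 CPM in *ZK3*-KO cells. *ZK3*-KO replicate 1 exceeded *ZK3*-WT replicate 3, so the groups overlapped. Within each replicate number the knockout was the lower of the 2 libraries. The difference did not pass (log2 fold change -1.08, SE 0.47, FDR 0.285, edgeR), and the FDR was 0.0697 at its lowest over the alternatives, in the fit with a replicate block. The log2 fold change was -1.75 without *ZK3*-KO replicate 1, -0.74 without *ZK3*-KO replicate 3 and -0.59 on the log2(TPM + 1) scale. *ABCG4*, the nearest relative of *ABCG1*, ranged from 5.22 to 6.71 CPM in *ZK3*-WT and from 4.86 to 5.39 CPM in *ZK3*-KO libraries (log2 fold change -0.16, FDR 0.721).

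The level of *ABCG2* was 2.26, 2.97 and 3.38 CPM in *ZK3*-WT cells, compared with 4.46, 5.48 and 1.76 CPM in *ZK3*-KO cells. Replicates 1 and 2 of the knockout were above every *ZK3*-WT library and replicate 3 below them all. It gave a log2 fold change of 0.44 (SE 0.42, FDR 0.619) with all libraries and 0.80 (SE 0.25, FDR 0.0622) without that library, but 0.12 (FDR 0.919) without *ZK3*-KO replicate 2 and 0.30 without *ZK3*-WT replicate 1.

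In subfamily A, 7 of the 10 tested members were above 0 and 3 below, and the median log2 fold change of 0.17 turned to -0.30 without *ZK3*-KO replicate 3 and to -0.0025 on the log2(TPM + 1) scale. Of the members above 0, *ABCA4*, *ABCA6*, *ABCA9* and *ABCA10* were under 1 TPM in both genotypes. The expressed members were *ABCA5*, *ABCA7* and *ABCA12* above 0 and *ABCA1*, *ABCA2* and *ABCA3* below. *ABCA2* was at 167, 158 and 163 CPM in *ZK3*-WT cells, compared with 124, 113 and 115 CPM in *ZK3*-KO cells. Its groups did not overlap and each was tight. A log2 fold change of -0.48 (SE 0.13) missed the threshold with all libraries (FDR 0.121, edgeR) and passed it without *ZK3*-KO replicate 3 (-0.46, FDR 0.0380) and by DESeq2 (FDR 0.00679). *ABCA7*, a phospholipid transporter and the next most abundant of the subfamily, ranged from 79.5 to 108 CPM in *ZK3*-WT and from 74.4 to 145 CPM in *ZK3*-KO libraries. *ABCA3*, known for lamellar bodies of the lung, and *ABCA12*, a lipid transporter of keratinocytes, likewise had their highest values in *ZK3*-KO replicate 3, at 29.6 and 20.7 CPM. *ABCA9* had the highest log2 fold change of the tested members, 1.06 (SE 0.52, FDR 0.334), on levels of at most 0.466 CPM.

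Subfamily B had 3 tested members above 0 and 3 below. Its median log2 fold change of -0.09 was below 0 in each alternative fit. *ABCB6*, a porphyrin transporter, was at 24.5, 23.4 and 29.4 CPM in *ZK3*-WT cells, compared with 14.4, 17.5 and 16.9 CPM in *ZK3*-KO cells. All *ZK3*-KO libraries were below all *ZK3*-WT libraries. The log2 fold change of -0.66 (SE 0.17) had the lowest FDR after *ABCG1*, 0.0982, and the FDR was 0.0301 without *ZK3*-KO replicate 3 and 0.0110 by DESeq2. *ABCB1* was at 9.37, 9.59 and 10.3 CPM in *ZK3*-WT cells, compared with 7.87, 6.48 and 8.45 CPM in *ZK3*-KO cells, again without overlap. The difference was small and did not pass (log2 fold change -0.36, SE 0.18, FDR 0.345). *ABCB9*, a lysosomal peptide transporter, was also separated, at 14.2 to 17.4 against 11.8 to 13.4 CPM (FDR 0.340).

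The mitochondrial members *ABCB8* and *ABCB10* overlapped between the genotypes. *ABCB8*, a transporter of the inner mitochondrial membrane and the leading member of B over both genotypes, was at 39.0, 30.4 and 39.9 CPM in *ZK3*-WT cells, compared with 40.7, 37.7 and 42.1 CPM in *ZK3*-KO cells. These overlapped (log2 fold change 0.14, SE 0.16, FDR 0.688). *ABCB10*, which takes part in haem synthesis, was at 22.9, 23.2 and 19.3 CPM in *ZK3*-WT cells, compared with 28.5, 38.8 and 10.7 CPM in *ZK3*-KO cells. Replicate 3 of the knockout was the lowest of the 6 libraries and the other 2 were the highest. For *ABCB10* the log2 fold change was 0.25 (SE 0.41, FDR 0.789) with all libraries and 0.63 (SE 0.17, FDR 0.0416) without replicate 3, and the sign turned without *ZK3*-KO replicate 2 (-0.15).

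Subfamily C holds the multidrug resistance proteins, of which 4 tested members were above 0 and 4 below. The median log2 fold change was -0.05 and turned to 0.0062 without *ZK3*-WT replicate 3 and 0.0045 without *ZK3*-KO replicate 3. *ABCC1*, an exporter of glutathione conjugates, was at 143, 151 and 155 CPM in *ZK3*-WT cells, compared with 150.0, 182 and 145 CPM in *ZK3*-KO cells. The groups overlapped and the log2 fold change was 0.09 (SE 0.15, FDR 0.798, edgeR). *ABCC2* was at 102, 200.3 and 148 CPM in the parental cells and at 177, 323 and 141 CPM in the knockout. In both genotypes replicate 2 was the highest, and the spread within a genotype exceeded the difference between them (log2 fold change 0.51, SE 0.36, FDR 0.499). It was 0.080 when replicate 2 of the knockout was left out, 0.74 when its replicate 3 was, and 0.29 and 0.77 when replicate 1 or 2 of the parental cells was.

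*ABCC3*, a basolateral exporter of conjugates and bile salts, varied widely between libraries of 1 genotype. It was at 40.2, 93.8 and 146 CPM in *ZK3*-WT cells, compared with 35.1, 29.1 and 239 CPM in *ZK3*-KO cells. Replicate 3 was the highest in both genotypes, and the other *ZK3*-KO libraries were below all *ZK3*-WT libraries. The log2 fold change was 0.11 (SE 0.83, FDR 0.961) with all libraries, -0.25 without *ZK3*-WT replicate 1 and -1.54 (SE 0.44, FDR 0.0458) without *ZK3*-KO replicate 3. *ABCC4* and *ABCC5*, exporters of cyclic nucleotides, were lowest in *ZK3*-KO replicate 3, at 34.0 and 23.7 CPM, and their log2 fold changes of -0.22 and -0.19 went to 0.03 and -0.02 without it. *ABCC10* ranged from 27.9 to 37.3 CPM in *ZK3*-WT and from 26.9 to 29.1 CPM in *ZK3*-KO libraries. *ABCC6*, which mediates ATP release, was separated at 2.23 to 2.39 against 1.18 to 1.59 CPM (log2 fold change -0.68, SE 0.25, FDR 0.211).

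In subfamily D, 2 of the 3 tested members, *ABCD3* and *ABCD4*, were above 0. *ABCD3*, the abundant peroxisomal membrane protein that imports branched-chain acyl groups, was at 56.1, 63.0 and 52.8 CPM in *ZK3*-WT cells, compared with 82.8, 100.3 and 43.5 CPM in *ZK3*-KO cells. Replicates 1 and 2 of the knockout were the highest libraries and replicate 3 the lowest. *ABCD3* thus had a log2 fold change of 0.40 (SE 0.29, FDR 0.510) with all libraries and 0.68 (SE 0.15, FDR 0.0184) without replicate 3, but 0.14 (FDR 0.838) without *ZK3*-KO replicate 2.

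The ribosomal members of subfamilies E and F were all above 0. *ABCE1* was at 144, 180.2 and 164 CPM in *ZK3*-WT cells, compared with 221, 282 and 139 CPM in *ZK3*-KO cells. As for *ABCD3*, the knockout held both the highest libraries and, in replicate 3, the lowest. The log2 fold change was 0.40 (SE 0.26, FDR 0.459) with all libraries and 0.64 (SE 0.16, FDR 0.0293) without that library, and 0.15 (FDR 0.793) without *ZK3*-KO replicate 2. *ABCF1* was at 81.1, 88.8 and 98.1 CPM in *ZK3*-WT cells, compared with 101, 119 and 115 CPM in *ZK3*-KO cells. Here all *ZK3*-KO libraries were above all *ZK3*-WT libraries, but the difference did not pass (log2 fold change 0.32, SE 0.15, FDR 0.300). *ABCF2*, at 91.4 to 102 against 109 to 152 CPM, was also separated (FDR 0.310), and *ABCF3*, a relative of yeast GCN20, overlapped at 47.0 to 56.1 against 51.7 to 63.1 CPM. The median of subfamily F was 0.29 and was above 0 in each alternative fit. The readthrough gene *ABCF2-H2BE1* was highest in replicate 3 of both genotypes, at 9.58 and 12.8 CPM, and its log2 fold change of 0.26 turned to -0.37 without *ZK3*-KO replicate 3. It shares sequence with *ABCF2*, so the split of reads between them is uncertain, as it is for *ABCC6* and its pseudogenes.

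Library by library, *ZK3*-KO replicate 3 was the highest or the lowest of the 6 for 18 of the 35 tested members (51.4%), and for 56.3% of all tested genes. *ZK3*-WT replicate 1 held that place for 17 members (48.6%) and 26.1% of all genes, and *ZK3*-KO replicate 2 for 19 members (54.3%) and 46.4%. The median deviation of the members from their mean over *ZK3*-WT libraries was between -0.034 and 0.018 on the log2 scale in 5 libraries and -0.16 in *ZK3*-KO replicate 3.

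Genes that work with ABC proteins, together with 3 ABC proteins under other symbols, made up 7 lists. These held 100 genes, of which 90 were tested. With all libraries 2 passed, both higher in *ZK3*-KO cells, and without *ZK3*-KO replicate 3 there were 12 higher and 8 lower. The background over all genes was 0.817% higher and 1.23% lower with all libraries, so 2 of 90 is near it, and 7.41% and 7.73% without that library. *SLCO3A1*, an uptake carrier for organic anions and prostaglandins, was at 1.99, 1.26 and 1.02 CPM in *ZK3*-WT cells, compared with 7.62, 7.89 and 4.85 CPM in *ZK3*-KO cells. It rose without overlap (log2 fold change 2.26, SE 0.34, FDR 0.0243, edgeR). *GLRX5*, a mitochondrial protein of iron-sulphur cluster assembly encoded on chromosome 14, was at 38.6 to 39.9 CPM in *ZK3*-WT and at 66.2 to 81.1 CPM in *ZK3*-KO libraries. It also rose (log2 fold change 0.92, SE 0.14, FDR 0.0241). The 504 tested genes of chromosome 14 had a median of 0.51, and the part of that shift in *GLRX5* was not tested. When any *ZK3*-WT library or *ZK3*-KO replicate 1 or 2 was left out, 0 of the listed genes passed. The 14 partners of sterol efflux, which include both liver X receptors, had 7 members on each side of 0 and a median of 0.015, which turned to -0.11 without *ZK3*-KO replicate 3. The 15 ribosome and GCN partners of E and F had 11 above 0 and 4 below with a median of 0.13 (0.19 without it). The 16 peroxisomal partners of D had 10 above and 6 below with a median of 0.17 (0.28 without it), and the 17 genes of mitochondrial haem and iron-sulphur synthesis, *GLRX5* included, had 13 above and 4 below with a median of 0.18 (0.090 without it). Of 18 tested xenobiotic sensors and conjugating enzymes 7 were above 0 and 11 below (median -0.035, and -0.015 without it), and of 8 tested uptake carriers, *SLCO3A1* included, 4 were on each side (median -0.020, and -0.039 without it). In the sterol list *NPC2*, with a log2 fold change of 0.69, lies within 1 Mb of *ABCD4* on chromosome 14. The part of the chromosome 14 shift in the medians of these lists was not tested.

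The ABC proteins with other symbols complete the family. *TAP1* and *TAP2*, which form the peptide transporter of antigen presentation, were at 43.4 to 53.0 and 81.2 to 97.3 CPM in *ZK3*-WT libraries. In *ZK3*-KO libraries they were at 36.5 to 43.1 and 61.2 to 67.3 CPM, below all *ZK3*-WT libraries in both cases. Neither passed with all libraries (log2 fold change -0.26, FDR 0.409 and -0.49, FDR 0.132, edgeR), and *TAP2* passed without *ZK3*-KO replicate 3 (FDR 0.0448). *CFTR*, the chloride channel of subfamily C, had a value above 0 in 1 library only, at 0.0647 CPM in *ZK3*-KO replicate 3.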

How the data were processed

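RNA of 3 *ZK3*-WT and 3 *ZK3*-KO replicates had been sequenced as 150 bp read pairs from stranded mRNA libraries. The authors deposited a count of reads per gene for each library without normalization, together with TPM values scaled by transcript length. FPKM values in the same table were not used. Processing notes of the submitters name Bowtie2 2.2.5 and hg19 (GRCh37), and the strand setting of counting is not given in the sources used here, so overlapping antisense genes may share reads.

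Counts were tested in R 4.3.3 with edgeR 4.0.16 (filterByExpr, TMM, quasi-likelihood test with genotype as the only factor) over all 18366 genes, with Benjamini-Hochberg adjustment. TMM factors were 0.910 to 1.03. CPM here are TMM-normalized. The SE of an edgeR fit was derived as the size of the log2 fold change divided by the square root of the F statistic. Alternatives were library totals, all genes with a read, a replicate block, each library left out, DESeq2 1.42.0, and limma 3.58.1 on log2(TPM + 1). Deviations from the genotype mean correlated at 0.294, 0.112 and 0.449 between libraries that shared replicate number 1, 2 and 3. For unlike numbers they correlated at -0.343 to 0.209. Replicate 2 thus lay within the range of unlike numbers, and replicates 1 and 3 above it. The pairing comes from the numbers in the labels. The 45 members with a GRCh37 position took it from GENCODE.

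Members and lists were chosen with earlier results of these data known. Members are named, except that results on a few are not reported here. Values per library are given for members past the FDR in any fit of all or 5 libraries, the most abundant member of each subfamily, and *ABCB1*, *ABCC1*, *ABCG2*, *ABCA1*, *ABCG1*, *ABCE1* and *ABCD4*. The limit for a count of 0 covers counting error only.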

Additional observations from a re-analysis of the deposited data

How the results depend on the processing

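Between 0 and 8 members passed the FDR of 0.05 when a library was left out, with 8 when *ZK3*-KO replicate 3 was absent and 0 when a *ZK3*-WT library or *ZK3*-KO replicate 1 was. DESeq2 called 3. Library totals, all genes with a read, limma on log2(TPM + 1) and the replicate block, which pairs the libraries by number, each called 1. Over all genes 376 were called, 461 with the block, 1506 by DESeq2, 270 with all genes with a read and 49 to 2858 with a library left out. The block changed no call of a named member. The median log2 fold change of the members was 0.14 and became 0.057 with library totals, -0.017 on log2(TPM + 1), where the median of all genes moved from 0.018 to -0.082, and 0.028 to 0.14 with a library left out. The context lists gave 0 to 20 calls with a library left out.

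*ABCC3* turned below 0 with library totals (-0.029), the block (-0.38) and log2(TPM + 1) (-0.48), and ranged from -1.54 to 0.59 with a library left out. *ABCB10* and *ABCC1* turned on log2(TPM + 1) (-0.027 and -0.042) and when *ZK3*-KO replicate 2 was absent, with ranges of -0.15 to 0.63 and -0.021 to 0.16. The cause was not tested. Of 176 values for 16 named members, 155 kept their direction and side of the threshold. With 30 members expressed at 1 TPM, a threshold of 0.5 TPM also gave 30 and the read filter 35. Members with at most 10 reads in a library could not be compared at this depth.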

Other observations

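The table also held 16 genes with ABC symbols that are not protein-coding, and 3 of them were tested. *ABCA11P*, a transcribed pseudogene, was the most abundant, at 7.73, 10.6 and 10.4 CPM in *ZK3*-WT cells, compared with 9.08, 10.2 and 9.56 CPM in *ZK3*-KO cells, with overlapping groups (log2 fold change 0.01, SE 0.19, FDR 0.986, edgeR). *ABCC6P2* had 8, 4 and 2 reads in *ZK3*-WT and 14, 12 and 15 reads in *ZK3*-KO libraries (log2 fold change 1.56, SE 0.59, FDR 0.225), the opposite side of 0 from its parent gene *ABCC6*, whose reads it could share. *ABCF1-DT*, the divergent transcript of *ABCF1*, had 14 to 22 reads and 10 to 15 reads (log2 fold change -0.47, FDR 0.597). The pseudogenes of *ABCB10* had at most 3 reads in a library.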
